A study of Mus musculus with 12 samples.

Results

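The 8 ABC transporters Abca1, Abcg1, Abcg5, Abcg8, Abcb4, Abcb11, Abcc2 and Abcc3 move cholesterol, plant sterols, phospholipid, bile salts and organic anions out of the liver cell. They were chosen by name, as the genes that the array annotation pairs with a probe set of their own. Each had 1 probe set, so that 8 of 35557 probe sets and 8 of 19938 named genes were described, beside 40 other genes of the ABC family. The study hybridised RNA of whole livers to 12 Affymetrix arrays, 3 per group, and all its mice were of the strain 129Sv and 12 weeks old. The groups were SIRT3KO mice weaned onto a Western diet with 42% fat, wild-type (SIRT3WT) mice on that high-fat diet, SIRT3KO mice on a standard diet, and wild-type mice on the standard diet. SIRT3 is a protein deacetylase of the mitochondrion, and every mouse, controls included, was fasted for 24 h before the liver was taken. How the knockout was made is not given in the sources used here. The labels number the arrays without saying that each came from a separate animal, so p-values measure the spread between these arrays.

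ABC transporters use ATP to carry their cargo across a membrane. In the liver, ABCA1 on the sinusoidal face loads cholesterol and phospholipid onto apolipoprotein A-I and so starts a high-density lipoprotein, and ABCG1, which is abundant in macrophages, passes cholesterol on to such particles. On the canalicular face, the ABCG5 and ABCG8 heterodimer secretes sterols into bile, ABCB4 flips phosphatidylcholine into it, ABCB11 is the bile salt export pump, and ABCC2 exports bilirubin glucuronide and other conjugates. ABCC3 sits on the basolateral face and returns conjugates and bile salts to the blood. Abca1, Abcg1, Abcg5 and Abcg8 are textbook targets of the liver X receptors (LXR), the oxysterol sensors, while Abcb11 and Abcb4 are targets of the bile acid receptor FXR.

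The promoters are shown because Abcg5 and Abcg8 lie head to head and were high on the same arrays, and because Abca1 and Abcb11 stand for the genes that differed by diet and those that did not pass. RefSeq's promoter table (build GRCm38.p6) matched 6 of the 8 genes. The interval between the listed starts of Abcg5 and Abcg8, chr17:84683012-84683120, holds 109 bases and is printed on the strand of Abcg8, with GATAAG and TATAAA, both on the opposite strand, in capitals.
Abcg5 and Abcg8 interval: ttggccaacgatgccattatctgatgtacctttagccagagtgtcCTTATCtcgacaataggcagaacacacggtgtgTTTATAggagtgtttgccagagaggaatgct
In the 250 bases before the start of Abca1, chr4:53159896-53160145 on the minus strand, capitals mark the E-box CACGTG, the relaxed direct repeat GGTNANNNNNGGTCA on the opposite strand, and TATAAA.
Abca1: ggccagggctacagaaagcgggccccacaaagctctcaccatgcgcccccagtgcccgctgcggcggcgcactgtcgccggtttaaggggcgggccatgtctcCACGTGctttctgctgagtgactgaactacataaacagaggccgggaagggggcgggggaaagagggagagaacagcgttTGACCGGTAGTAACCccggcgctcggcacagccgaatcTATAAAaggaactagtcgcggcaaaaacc
In the 250 bases before the start of Abcb11, chr2:69342617-69342866 on the minus strand, capitals mark AGGTCA, the core motif of many nuclear receptors, on the opposite strand.
Abcb11: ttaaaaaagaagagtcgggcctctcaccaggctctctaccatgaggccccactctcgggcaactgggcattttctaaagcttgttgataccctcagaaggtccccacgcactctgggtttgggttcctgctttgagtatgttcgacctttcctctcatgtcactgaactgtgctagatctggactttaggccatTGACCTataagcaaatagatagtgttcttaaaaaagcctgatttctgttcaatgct

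Motifs were searched on both strands. Each was set beside its share among 32851 RefSeq promoter windows of the same length. The interval's TATAAA lay 31 to 26 bases before the start of Abcg8 and 84 to 79 before that of Abcg5, and 5.902% of 109-base windows held one. Its GATAAG lay 64 to 59 bases before Abcg8 and 51 to 46 before Abcg5, with a share of 2.533% in such windows. GATAAG also lay 99 to 94 bases before the start of Abcb4 and 150 to 145 before that of Abcc2. In 250-base windows its share was 6.548%. In Abca1 the E-box lay 147 to 142 bases before the start, and 6.021% of 250-base windows held one. TATAAA lay 29 to 24 bases before the Abca1 start, with a share of 12.37%. The relaxed repeat, whose letters were chosen after the Abca1 sequence was seen, lay 67 to 53 bases before that start and was found in 0.1766% of windows. The exact repeat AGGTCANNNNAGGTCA was in none of the windows of the 6 genes and in 0.01522% of all. AGGTCA lay 56 to 51 bases before the start of Abcb11 and 49 to 44 bases before that of Abcc2, and 14.02% of windows held it. None of the motifs overlapped another in the printed sequences. RefSeq lists another start of Abcg8, which is not shown. These matches describe letters and not bound sites.

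Values are deposited log2 expression values made by robust multi-array averaging (RMA), so a difference of 1 is a doubling. Array medians lay between 6.34 and 6.47. The values of the diets appear to come from separate RMA runs: 335 probe sets had no value on the standard-diet arrays only, and arrays of different diets shared at most 1 identical value, against 2 to 31 within a diet. Every diet difference below therefore lies across runs, which cannot be told apart from the diets, while genotype differences lie within runs. Hepatocyte markers were high on every array (8 of 9 measured, array means 13.27 to 13.36 for SIRT3KO high-fat, 13.27 to 13.37 for wild-type high-fat, 13.34 to 13.47 for SIRT3KO standard and 13.35 to 13.46 for wild-type standard). Sirt3 itself averaged 8.76 ± 0.23 in SIRT3KO and 9.18 ± 0.09 in wild-type livers on the high-fat diet, and 8.90 ± 0.07 in SIRT3KO and 9.05 ± 0.08 in wild-type livers on the standard diet (SD, n = 3 each). Its SIRT3KO arrays lay below its wild-type arrays on both diets, by 0.42 and 0.14 on the log2 scale. Neither difference passed over all genes (unadjusted p = 0.0014 and 0.21, adjusted p = 1.0 and 0.66 by limma). On the high-fat diet, where no gene passed between genotypes, Sirt3 ranked 7 by p. Whether its probes lie in a deleted part is not known here. SIRT3KO standard-diet replicate 1 stood apart in 18 acute-phase genes, with a mean of 11.35 against 9.74 and 9.75 on the other arrays of its group.

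Within an array, members differed widely in probe set value, which does not rank their transcripts because probe sets differ in brightness. By mean over 12 arrays, Abcg1 was at 7.80, at percentile 70.7 of all genes, and the other 7 members lay between 10.17 (Abca1) and 12.21 (Abcb4, percentile 99.2).

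**Figure D1:**
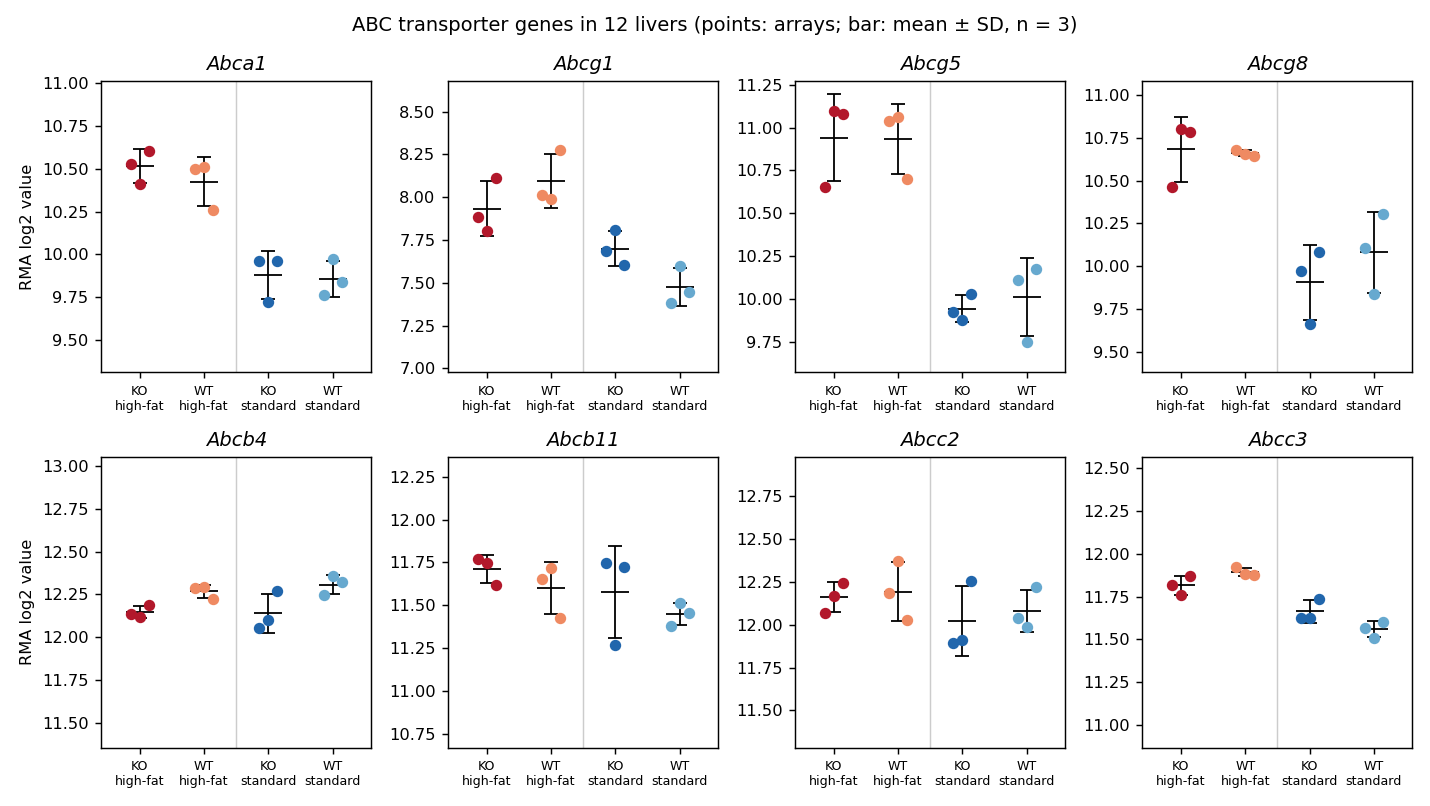
Deposited RMA log2 values of the 8 genes (vertical axes, 1 panel each) by group, with points for arrays and bars for mean ± SD of 3 arrays. Abca1, Abcg5 and Abcg8 lie higher on the high-fat diet in both genotypes, while Abcb4, Abcb11 and Abcc2 overlap between diets.

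Set against the standard diet, the high-fat livers held more signal for the sterol exporters. In wild type, Abca1, Abcg1, Abcg5, Abcg8 and Abcc3 rose, by 0.33 to 0.92 on the log2 scale, and none of the 8 fell. In SIRT3KO livers Abca1, Abcg5 and Abcg8 rose, by 0.64 to 1.00. The canalicular exporters of phospholipid, bile salts and conjugates, Abcb4, Abcb11 and Abcc2, did not pass in either genotype. The calls were made with limma, with 1 mean per group and Benjamini-Hochberg adjustment over all 19938 genes at 0.05. The 5 of 8 higher in wild type stand beside 4.3% of all genes called higher there, and the 3 of 8 in SIRT3KO beside 2.45%. No call in either genotype held when a variance for an offset between the runs was added, estimated from receptor genes of smell and taste (SD 0.21): Abcg5 then had the smallest unadjusted p, 0.0015 in SIRT3KO and 0.0027 in wild type (limma adjusted p = 0.60 and 1.0).

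Markers of other liver cells also stood higher beside the wild-type rise. The 10 stellate cell markers had array means of 7.91 to 8.05 in wild-type high-fat livers, against 7.75 to 7.79 in wild-type standard-diet livers (median difference 0.27, 8 of 10 higher in sign, 0 called). The 9 endothelial markers were at 8.62 to 8.71 against 8.52 to 8.56 (median difference 0.14, 6 of 9 higher in sign, 1 called). The wild-type arrays of the diets were thus apart in both lists, and without wild-type high-fat replicate 3 the medians were 0.18 and 0.08. In SIRT3KO the stellate markers overlapped between diets, at 7.75 to 7.93 against 7.65 to 7.86 (median difference 0.05), and so did the endothelial markers, at 8.54 to 8.61 against 8.52 to 8.55 (median difference 0.06). Their part in the rise of the exporters was not tested.

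Abca1, the exporter to apolipoprotein A-I, had values of 10.53, 10.41 and 10.61 in SIRT3KO high-fat livers, against 9.96, 9.72 and 9.96 in SIRT3KO standard-diet livers. In wild type they were 10.50, 10.51 and 10.26 on the high-fat diet and 9.76, 9.97 and 9.84 on the standard diet. All 6 high-fat arrays lay above all 6 standard-diet arrays. The rise was 0.64 in SIRT3KO (SE 0.10, limma adjusted p = 0.0036), a fold of 1.55, and 0.57 in wild type (SE 0.10, limma adjusted p = 0.0060), a fold of 1.48. It was called without any single array in both genotypes.

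Abcg1, the exporter to formed lipoprotein particles, had values of 7.88, 7.80 and 8.11 in SIRT3KO high-fat livers, against 7.69, 7.81 and 7.61 in SIRT3KO standard-diet livers. In wild type they were 8.01, 7.99 and 8.27 on the high-fat diet and 7.38, 7.60 and 7.44 on the standard diet. The diets overlapped in SIRT3KO and were apart in wild type. Abcg1 rose by 0.62 in wild type (SE 0.11, limma adjusted p = 0.0063), while the difference of 0.23 in SIRT3KO did not pass (95% interval -0.0020 to 0.47, limma adjusted p = 0.24). The highest array, wild-type high-fat replicate 3, was also the highest in the mean of 14 Kupffer cell and macrophage markers, though not in each of them. The mean of those markers was 8.15 to 8.23 in SIRT3KO high-fat, 8.16 to 8.71 in wild-type high-fat, 8.10 to 8.37 in SIRT3KO standard and 8.08 to 8.30 in wild-type standard livers, and between diets 1 of 14 markers rose in wild type and 0 in SIRT3KO. In sign, 12 of 14 were higher on the high-fat diet in wild type (median 0.13) and 4 of 14 in SIRT3KO (median -0.07). Without that array it was 6 of 14 in wild type (median -0.03), and Abcg1 still rose, by 0.53 (limma adjusted p = 0.021). In whole tissue, fewer cells of a type and less RNA per cell cannot be told apart.

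Abcg5, a subunit of the biliary sterol pump, had values of 10.65, 11.10 and 11.08 in SIRT3KO high-fat livers, against 9.93, 9.88 and 10.03 in SIRT3KO standard-diet livers. In wild type they were 11.04, 11.06 and 10.70 on the high-fat diet and 10.11, 9.75 and 10.18 on the standard diet. All 6 high-fat arrays lay above all 6 standard-diet arrays, with 1 high-fat array of each genotype lower than the others. Its rise was the largest of the 8 genes in both genotypes: 1.00 in SIRT3KO (SE 0.14, limma adjusted p = 0.0017), a fold of 2.00, and 0.92 in wild type (SE 0.14, limma adjusted p = 0.0029), a fold of 1.89. It was called without any single array in both genotypes.

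Abcg8, the partner subunit, had values of 10.46, 10.80 and 10.79 in SIRT3KO high-fat livers, against 9.97, 9.66 and 10.08 in SIRT3KO standard-diet livers. In wild type they were 10.68, 10.66 and 10.64 on the high-fat diet and 10.11, 9.83 and 10.31 on the standard diet. The diets were apart in both genotypes, and the wild-type high-fat arrays lay close together (SD 0.02, n = 3). Abcg8 rose by 0.78 in SIRT3KO (SE 0.13, limma adjusted p = 0.0049) and by 0.58 in wild type (SE 0.13, limma adjusted p = 0.021), folds of 1.72 and 1.49. The wild-type call was lost without wild-type standard-diet replicate 1 or 2 (limma adjusted p = 0.060 and 0.097) and without wild-type high-fat replicate 1 or 2 (0.077 and 0.0505), while the difference stayed between 0.46 and 0.69.

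Abcc3, the basolateral exporter of conjugates, had values of 11.82, 11.76 and 11.87 in SIRT3KO high-fat livers, against 11.63, 11.63 and 11.74 in SIRT3KO standard-diet livers. In wild type they were 11.92, 11.88 and 11.88 on the high-fat diet and 11.57, 11.51 and 11.60 on the standard diet. High-fat arrays lay above standard-diet arrays in both genotypes. The nearest arrays of the diets were at 11.76 and 11.74 in SIRT3KO, and at 11.88 and 11.60 in wild type. The rise was 0.33 in wild type (SE 0.07, limma adjusted p = 0.015), and the difference of 0.15 in SIRT3KO did not pass (95% interval 0.0038 to 0.30, limma adjusted p = 0.22). The wild-type call was lost without wild-type standard-diet replicate 1 or 2 (limma adjusted p = 0.0503 and 0.071) and without wild-type high-fat replicate 1 (0.067), at differences of 0.34, 0.31 and 0.32.

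Abcb4, the phosphatidylcholine floppase, was at 12.13, 12.12 and 12.19 in SIRT3KO high-fat livers and at 12.05, 12.10 and 12.27 in SIRT3KO standard-diet livers. In wild type it was at 12.29, 12.29 and 12.22 on the high-fat diet and at 12.24, 12.36 and 12.32 on the standard diet. The diets overlapped in both genotypes. The diet difference was 0.01 in SIRT3KO (95% interval -0.15 to 0.17) and -0.04 in wild type (95% interval -0.20 to 0.12), the differences nearest to 0 among the 8 genes in each genotype.

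Abcb11, the bile salt export pump, was at 11.77, 11.75 and 11.62 in SIRT3KO high-fat livers and at 11.74, 11.27 and 11.72 in SIRT3KO standard-diet livers. In wild type it was at 11.65, 11.72 and 11.43 on the high-fat diet and at 11.38, 11.51 and 11.46 on the standard diet. One SIRT3KO standard-diet array, replicate 2, was the lowest of all. The diet difference was 0.13 in SIRT3KO (95% interval -0.12 to 0.38) and 0.15 in wild type (95% interval -0.10 to 0.40), and neither passed.

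Abcc2, the canalicular exporter of conjugates, was at 12.07, 12.17 and 12.24 in SIRT3KO high-fat livers and at 11.89, 11.91 and 12.26 in SIRT3KO standard-diet livers. In wild type it was at 12.18, 12.37 and 12.03 on the high-fat diet and at 12.04, 11.99 and 12.22 on the standard diet. Arrays of the diets overlapped in both genotypes. The diet difference was 0.14 in SIRT3KO (95% interval -0.10 to 0.38) and 0.11 in wild type (95% interval -0.13 to 0.35), and neither passed.

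**Figure D2:**
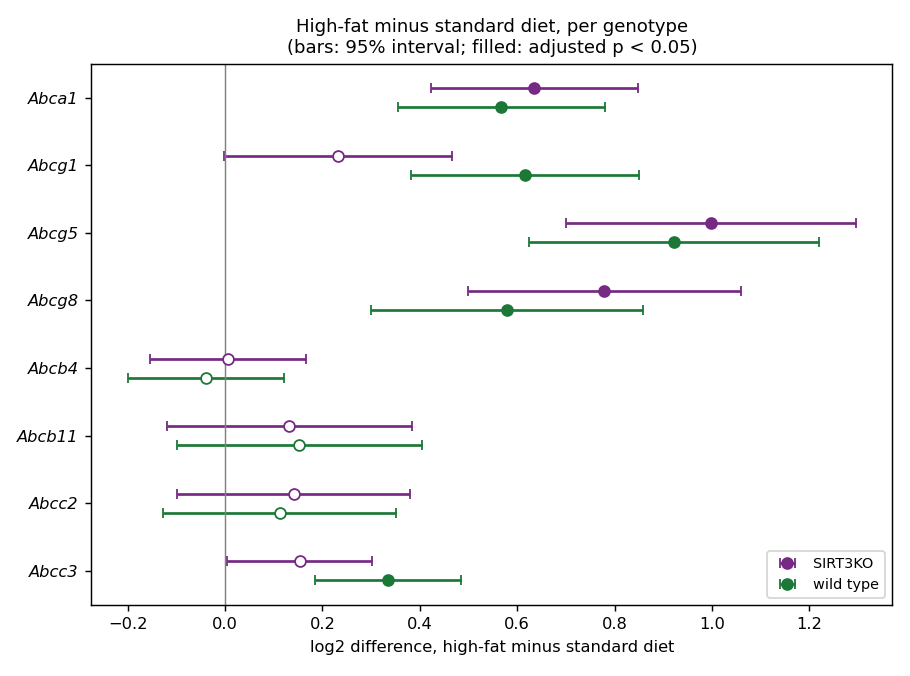
Log2 difference, high-fat minus standard diet (horizontal axis), for each of the 8 genes in SIRT3KO and wild-type livers, with 95% intervals. Filled points passed a limma adjusted p under 0.05: Abca1, Abcg5 and Abcg8 in both genotypes, Abcg1 and Abcc3 in wild type.

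The high-fat arrays lay wholly above the standard-diet arrays for 4 members in SIRT3KO and 5 in wild type, beside 10.6% and 19.4% of all genes. Over the mean of both genotypes, 5 of 8 rose (10.3% of all genes did): Abca1 by 0.60, Abcg1 by 0.42, Abcg5 by 0.96, Abcg8 by 0.68 and Abcc3 by 0.24. The median difference of the 8 genes was 0.19 in SIRT3KO and 0.45 in wild type, beside -0.01 and 0.04 over all genes. Among all genes, the fit called 488 higher and 530 lower in SIRT3KO and 858 higher and 336 lower in wild type. In wild type the split was 636 and 491 after quantile normalization of all arrays together, 759 and 566 after cyclic loess, and 432 and 646 after median centring. Over both genotypes it was 2049 and 1533, and 1464 and 2124 after median centring. Median centring also left Abcg8 and Abcc3 uncalled in wild type (differences of 0.50 and 0.26, limma adjusted p = 0.060 and 0.077).

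Other genes of sterol handling were read from lists. Among 13 other LXR target genes measured, 4 rose in SIRT3KO and 5 in wild type, and none fell in either. Over the mean of both genotypes 7 rose and 1 fell. Of all genes, 2.45% were called higher in SIRT3KO, 4.3% in wild type and 10.3% over both. The list's median difference was 0.28 in SIRT3KO and 0.33 in wild type. Scd1, a stearoyl-CoA desaturase, rose by 1.85 and 3.38 in SIRT3KO and wild type (limma adjusted p = 6.1e-04 and 2.1e-06). Lpl, lipoprotein lipase, rose by 1.61 and 1.98 (limma adjusted p = 9.2e-04 and 1.9e-04), and Srebf1, the regulator of fatty acid synthesis, by 1.18 and 1.27 (6.1e-04 and 2.7e-04). Lpcat3, which puts polyunsaturated chains into phospholipid, rose by 0.42 and 0.38 (0.012 and 0.018). The wild-type call of Lpcat3 was lost without any 1 of the wild-type standard-diet arrays or without wild-type high-fat replicate 1 (limma adjusted p = 0.057 to 0.087), and after median centring (0.30, limma adjusted p = 0.068). Mylip, the ligase that degrades the LDL receptor, differed by 0.28 and 0.26 and did not pass, nor did Cyp7a1, the rate-limiting enzyme of bile acid synthesis, at 0.74 and 0.43. Like the members' diet calls, the list's calls lie across runs. With the variance for the offset between runs, Scd1 and Lpl stayed called in wild type (limma adjusted p = 3.6e-04 and 0.041) but not in SIRT3KO (0.062 and 0.15). Every other diet call of a gene named here from this list and those below was lost with that variance, in both genotypes where called (limma adjusted p = 0.25 to 1.0).

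**Figure D3:**
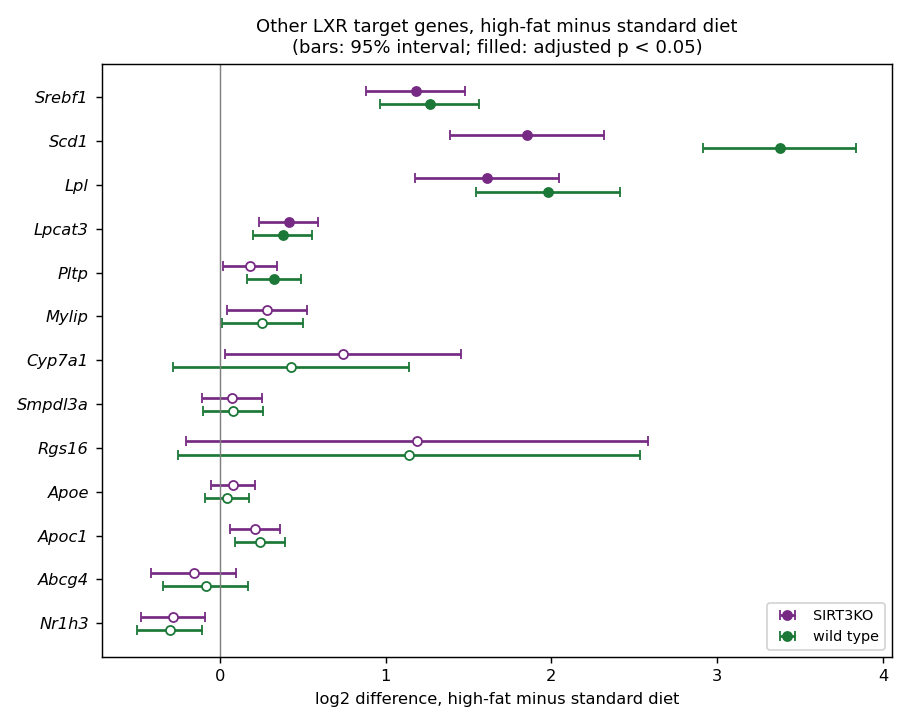
Log2 difference, high-fat minus standard diet (horizontal axis), for 13 other LXR target genes in SIRT3KO and wild-type livers, with 95% intervals. Filled points passed a limma adjusted p under 0.05, and Scd1, Lpl and Srebf1 lie farthest to the right among them.

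Of 17 nuclear receptors and sterol sensors, 1 rose and 3 fell in SIRT3KO, and 1 rose and 2 fell in wild type, with medians of -0.12 and -0.17. The 1 that rose was Srebf1 in both, already counted as risen among the LXR targets. Insig2 was called lower in SIRT3KO only (-0.79, limma adjusted p = 0.019), a call lost without some single arrays. Srebf2, the regulator of cholesterol synthesis, fell by 0.65 in SIRT3KO and 0.54 in wild type (limma adjusted p = 0.0029 and 0.0069). Insig1, which holds SREBPs in the endoplasmic reticulum, fell by 0.96 and 0.93 (0.0093 and 0.010). The wild-type call of Insig1 was lost without wild-type high-fat replicate 1 (-0.79, limma adjusted p = 0.056). The LXR gene Nr1h3, also on the LXR target list, differed by -0.28 and -0.30 and did not pass (limma adjusted p = 0.088 and 0.066). The FXR gene Nr1h4 differed by -0.03 and -0.23 (0.92 and 0.30).

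Of 16 genes of cholesterol uptake, storage and HDL, 0 rose and 1 fell in SIRT3KO, and 2 rose and 2 fell in wild type. The gene that fell in both was Stard4, a cytosolic sterol carrier, by 0.77 in SIRT3KO and 0.67 in wild type (limma adjusted p = 0.0066 and 0.014). Its wild-type call was lost without wild-type standard-diet replicate 1 (-0.57, limma adjusted p = 0.062) and without wild-type high-fat replicate 1 (-0.64, 0.059). Lrp1 and Pltp were called higher in wild type only, by 0.40 and 0.33 (limma adjusted p = 0.018 and 0.024). Apom was called lower there (-0.42, limma adjusted p = 0.026). Each of these calls was lost without some single arrays, and Pltp is also on the LXR target list. Scarb1, the HDL receptor, differed by 0.23 in SIRT3KO and 0.25 in wild type and did not pass (limma adjusted p = 0.16 and 0.13).

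Of 25 genes of canalicular and basolateral bile transport, 2 rose and 0 fell in SIRT3KO, and 1 rose and 1 fell in wild type. Abcg2, a canalicular exporter of drugs and conjugates, differed by 0.87 in SIRT3KO (limma adjusted p = 0.022) and by 0.57 in wild type (0.11). Its SIRT3KO call was lost without SIRT3KO standard-diet replicate 1 (0.62, limma adjusted p = 0.063) and without SIRT3KO high-fat replicate 2 or 3 (0.87 and 0.77, 0.076 and 0.089). Slco1a4, a basolateral uptake carrier, fell by 1.17 in wild type (limma adjusted p = 0.0097) and differed by -0.66 in SIRT3KO (0.11). Without wild-type high-fat replicate 1 the wild-type difference of Slco1a4 was -1.04 (limma adjusted p = 0.053). Atp8b1, the phosphatidylserine flippase of the canalicular membrane, differed by 0.18 in both genotypes and did not pass.

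Among the 40 remaining ABC family genes, 2 rose and 1 fell in SIRT3KO, and 3 rose and 1 fell in wild type, with medians of -0.06 and 0.02. Abca8a rose by 0.88 in SIRT3KO (limma adjusted p = 0.0068) and by 0.71 in wild type (0.021), the wild-type call being lost without any 1 of 5 wild-type arrays, high-fat replicate 3 excepted (limma adjusted p = 0.052 to 0.087). The shares that rose in SIRT3KO and wild type were 3 of 8 and 5 of 8 for the exporters described here. For the remaining family they were 2 of 40 and 3 of 40, beside 2.45% and 4.3% of all genes. Over the mean of both genotypes, 5 of 8 exporters and 6 of 40 others rose, beside 10.3% of all genes. Of the 40, 4 fell over that mean. The remaining family was dimmer, at array means of 7.32 to 7.47, against gene means of 7.80 to 12.21 for the exporters. Abcg2 in SIRT3KO and Abcc6 in wild type were counted as risen both in this family and in the bile transport list. The difference between these shares was not tested.

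Set against wild type, the SIRT3KO livers showed no called difference in any of the 8 exporters on either diet. On the high-fat diet 0 of 8 passed, beside 0% of all genes (571 genes, 2.86%, had an unadjusted p under 0.05, and 0 members). On the standard diet 0 of 8 passed, beside 0.00502% of all genes, which is the gene Scd1 alone (1939 genes, 9.73%, had an unadjusted p under 0.05, and 1 member). Over both diets 0 of 8 passed, beside 0% (1323 genes, 6.64%, and 1 member at an unadjusted p under 0.05). Intervals of the 8 differences reached from -0.46 (Abcg8) to 0.46 (Abcg1), both on the standard diet.

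Abcb4 was the member with the smallest unadjusted p. It was lower by 0.12 in SIRT3KO on the high-fat diet (SE 0.07), where no SIRT3KO array reached a wild-type array, and by 0.17 on the standard diet (SE 0.07), where the groups overlapped at SIRT3KO replicate 3. Over both diets the difference was -0.14 (95% interval -0.26 to -0.03, unadjusted p = 0.016 and adjusted p = 0.74 by limma). This is a value 9.5% lower on the linear scale.

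Some other genes of the lists are given as values between genotypes. Scd1 was higher by 1.71 in SIRT3KO on the standard diet (SE 0.22, limma adjusted p = 0.026) and was the only gene called there; no gene passed on that diet without SIRT3KO standard-diet replicate 1 or 2, SIRT3KO high-fat replicate 1 or 2, or any 1 of the wild-type high-fat arrays. Slco1a1, a basolateral uptake carrier, differed there by -1.10 (unadjusted p = 3.6e-04 and adjusted p = 0.49 by limma), and Abcb1a, a multidrug exporter, by 0.54 (unadjusted p = 0.0051 and adjusted p = 0.50 by limma). On the high-fat diet Lpl differed by -0.49 with overlap of the genotypes (unadjusted p = 0.029 by limma). Slco1a1 differed there by -0.57 without overlap (unadjusted p = 0.030 by limma), and neither passed. Over both diets Scd1 differed by 0.95 (unadjusted p = 2.1e-05 and adjusted p = 0.25 by limma). Slco1a1 differed by -0.83 over both (unadjusted p = 1.8e-04 and adjusted p = 0.51 by limma), Lrp1 by 0.20 (0.0055 and 0.74), and Abcb1a by 0.35 (0.0085 and 0.74).

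The genotype difference of 4 members had opposite signs on the 2 diets. For Abcc3, the 3 SIRT3KO arrays lay below the 3 wild-type arrays on the high-fat diet (difference -0.08, SE 0.07) and above them on the standard diet (0.10, SE 0.07). For Abcg1, SIRT3KO differed from wild type by -0.16 on the high-fat diet with overlap (SE 0.11), and by 0.22 on the standard diet without overlap (SE 0.11, limma adjusted p = 0.53). The difference also changed sign for Abcg5 (0.01 on the high-fat and -0.07 on the standard diet) and Abcg8 (0.02 and -0.18), with overlap of the genotypes on both diets. Thus 2 members, Abcb4 and Abcc3, lay wholly below wild type on the high-fat diet, beside 4.27% of all genes, and 2, Abcg1 and Abcc3, wholly above on the standard diet, beside 9.88%. The bile duct markers, 8 of 11 measured, were higher in sign in SIRT3KO on the standard diet for 8 of 8 genes with 0 called, at array means of 5.95 to 6.21 against 5.79 to 6.00 in wild type. On the high-fat diet they were at 5.93 to 6.01 in both genotypes. All these array means lay below 6.70, the median level over all genes. The median genotype difference on the standard diet was 0.21 for the bile duct markers and 0.04 over all genes. Of the 14 macrophage markers, 3 were higher in sign in SIRT3KO on the high-fat diet (median -0.19) and 13 on the standard diet (median 0.09), with 0 called on either. Without wild-type high-fat replicate 3 the count on the high-fat diet was 8 of 14 (median 0.0074), and the difference of Abcg1 there was -0.07. Their part in the values of the exporters was not tested.

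The change with diet was then compared between genotypes by the interaction, in which an offset shared by the arrays of a diet cancels. None of the 8 passed, beside 0% of all genes (944 genes, 4.73%, had an unadjusted p under 0.05, and 1 member). For Abcg1 the diet difference was smaller in SIRT3KO by 0.38 (interaction -0.38, 95% interval -0.72 to -0.05, unadjusted p = 0.026 and adjusted p = 0.95 by limma), and without wild-type high-fat replicate 3 the interaction was -0.29. The interaction was above 0 for 2 of 14 macrophage markers (median -0.26, beside -0.05 over all genes, 0 called). The 2 with the smallest p were Cd68 at -0.47 (unadjusted p = 0.013 and adjusted p = 0.95 by limma) and Csf1r at -0.40 (unadjusted p = 0.033 and adjusted p = 0.95 by limma). Without wild-type high-fat replicate 3 the interaction was above 0 for 5 of 14 (median -0.11, beside -0.06 over all genes). It was above 0 for 0 of 8 bile duct markers (median -0.21), 1 of 10 stellate markers (median -0.14) and 3 of 9 endothelial markers (median -0.03), with 0 called. Their part in the interaction of Abcg1 was not tested. For Abcc3 it was -0.18 (95% interval -0.39 to 0.03) and for Abcg8 0.20 (95% interval -0.20 to 0.60). Abca1 and Abcg5, at 0.07 and 0.08, had intervals of -0.23 to 0.37 and -0.34 to 0.50. The calls of Abcg1 and Abcc3 in wild type and not in SIRT3KO are therefore not shown to differ between the genotypes.

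**Figure D4:**
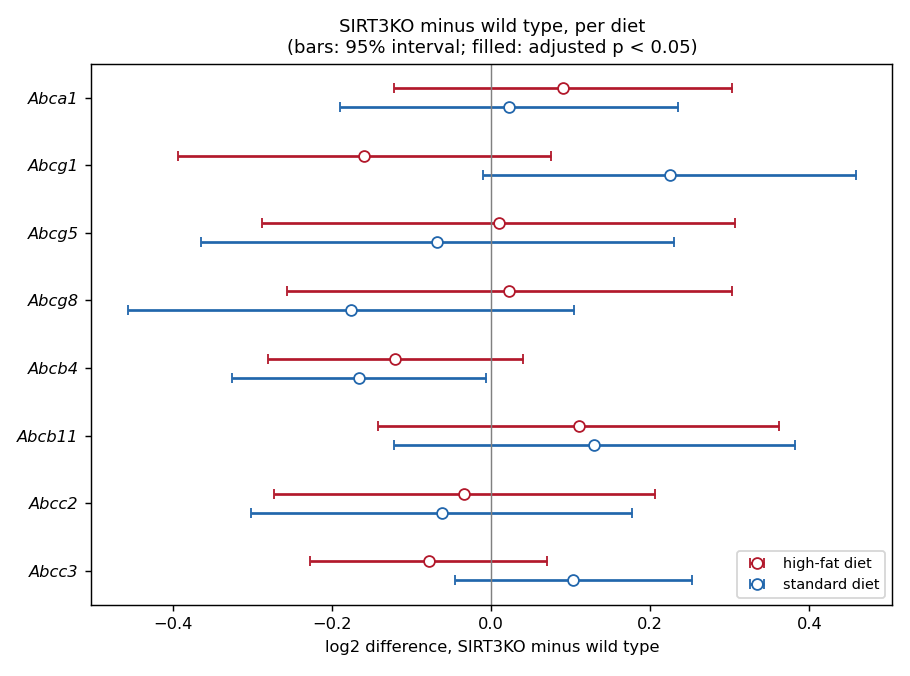
Log2 difference, SIRT3KO minus wild type (horizontal axis), for each of the 8 genes on the high-fat and the standard diet, with 95% intervals. No point passed a limma adjusted p under 0.05, and the points of Abcg1, Abcg5, Abcg8 and Abcc3 lie on opposite sides of 0 on the 2 diets.

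The exporters were also compared with each other from array to array, after the mean of the 6 arrays of a diet was taken from each value. Over 12 arrays, the subunit genes Abcg5 and Abcg8 had a Pearson r of 0.77 (permutation within diets, p = 0.0018, adjusted over 28 pairs 0.051) and a Spearman rho of 0.94 on ranks within diets (p = 2.3e-04, adjusted 0.0064). Their r was 0.82 within the high-fat and 0.86 within the standard diet, and 0.81 without the arrays farthest from the median of Abcg5, 2 in number. SIRT3KO high-fat replicate 1 was the lowest high-fat array for both genes, and wild-type standard-diet replicate 3 the highest standard-diet array for both. The next highest r, between Abca1 and Abcb11, was 0.75 (permutation within diets, p = 0.0095, adjusted 0.13), with rho 0.54 (p = 0.095, adjusted 0.45), and fell to 0.46 without the 2 arrays farthest from the median of Abca1. Over the 28 pairs r ran from -0.48 to 0.77, with 4 pairs at an unadjusted p under 0.05 and 0 after adjustment of r.

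**Figure D5:**
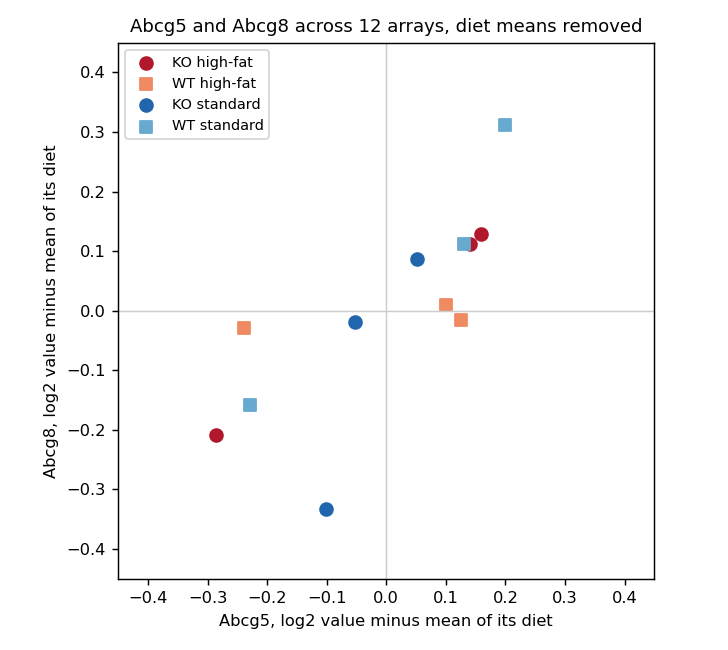
Abcg8 against Abcg5 over the 12 arrays, both as log2 value minus the mean of the 6 arrays of the same diet, with colours and shapes for the groups. The points run from SIRT3KO high-fat replicate 1 at the lower left to wild-type standard-diet replicate 3 at the upper right (r = 0.77).

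On the same diet-centred values, the named genes most like each exporter were sought among 17021 genes, as a description over 12 arrays of 4 groups. The closest gene was Naa40 for Abca1 (r = 0.91), Cnbd2 for Abcg1 (0.93), Zc3h12c for Abcg5 (0.95), Rnf130 for Abcg8 (0.93), Crem for Abcb4 (0.96), Dsc2 for Abcb11 (0.88), Trim33 for Abcc2 (0.98) and Zfp219 for Abcc3 (0.88). None of the 3 closest genes of any exporter was another of the 8.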

How the data were processed

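RNA of 12 mouse livers was measured on Affymetrix whole-transcript arrays, and groups were read from the labels. Per the submitters' processing notes, the authors computed the deposited log2 values by RMA, and those notes name Affymetrix Expression Console, with no version given in the sources used here. Of 35557 probe sets, GEO's platform annotation gave 21789 a single symbol, 1621 several and 12147 none here; the brightest probe set stood for a gene, leaving 19938 genes. Limma 3.58.1 in R 4.3.3 fitted 1 mean per group over all arrays with an intensity trend (8 residual degrees of freedom), and p-values were adjusted by Benjamini-Hochberg over all genes. The number of arrays limits the precision. Scripts were tested on simulated data. All 8 genes are named, and of other lists the called genes with the smallest p, or otherwise a few named for their role after their values were seen. The members and lists were chosen with earlier results of these data known. Alternatives were other moderation, scaling, filters, thresholds, a replicate block, left-out arrays and a variance for the offset between runs. Deviations from group means over all genes had r over 0.1 in 5 of 18 pairs of same-numbered arrays of different groups. Among unlike-numbered arrays it was 9 of 36 pairs, so the numbers were not taken as pairs. Between replicate 3 arrays r ran from -0.27 to 0.41. Listed genes without a value in the table were not analysed here.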

Additional observations from a re-analysis of the deposited data

Results flagged for a closer look

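Abcc3 stood out because its genotype difference pointed in opposite directions on the diets without overlap of the groups. The SIRT3KO arrays were at 11.76 to 11.87 and the wild-type arrays at 11.88 to 11.92 on the high-fat diet, and the SIRT3KO arrays at 11.63 to 11.74 and the wild-type arrays at 11.51 to 11.60 on the standard diet. The interaction was -0.18 (SE 0.10, unadjusted p = 0.086 and adjusted p = 0.95 by limma), which did not pass.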

How the results depend on the processing

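With 3 arrays per group, small differences could not be told from the spread between arrays. The count of members called was 0 for both genotype comparisons, their average and the interaction under every alternative run. For the diet in wild type the count of 5 was 3 after median centring and at an adjusted p under 0.01, 3 to 5 when 1 array was left out, and 0 with a variance for the offset between runs. For the diet in SIRT3KO the count of 3, and for the average the count of 5, was 0 with that variance and was the same without any 1 array. A replicate block gave 3 members in SIRT3KO, 5 in wild type, 5 over both and 0 for the other comparisons, as before, and it changed no call of a member; all-gene counts were 829 higher and 329 lower in wild type and 494 and 531 in SIRT3KO. Over all genes, the diet calls in SIRT3KO, in wild type and over both (1018, 1194 and 3582) were 2016, 3632 and 5264 with array weights, 431, 346 and 1628 over the brighter genes alone, 1926, 2214 and 5096 at an adjusted p under 0.10, 232, 274 and 1519 at 0.01, 625, 933 and 2974 without the 2 arrays named below, and 5, 7 and 9 with the offset variance. Fitting SIRT3KO groups alone gave 381. Leaving out 1 array gave 360 (without SIRT3KO high-fat replicate 2) to 1286, 389 (without wild-type high-fat replicate 1) to 1322, and 2644 to 3519. Genotype calls were 0 to 6 on the standard diet, the most without SIRT3KO replicate 3, 0 to 1 on the high-fat diet, 0 to 2 on average and 0 to 1 for the interaction.

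Of the members' values under alternatives, 1368 kept direction and side of the threshold, 24 lost a call and 64 changed sign; each that changed sign was uncalled before and after, and the largest was 0.12. The cause was not tested. Sign changes with array weights were -0.0045 (Abca1, SIRT3KO minus wild type, high-fat), -0.014 (Abcc3, genotype average) and -0.032 (Abca1, interaction). With quantile normalization they were 0.010 (Abcg5, genotype average), 0.0026 and 0.012 (Abcb4, diet in wild type and average) and -0.0042 (Abcc2, interaction). With cyclic loess they were 0.011, 0.037, 0.039 and -0.014 in the same order. With median centring they were -0.050 (Abca1, genotype, standard), -4.4e-05 and -0.020 (Abcg1 and Abcc3, genotype average) and 0.060 (Abcb11, interaction). Without both wild-type replicate 3 of the high-fat diet and SIRT3KO replicate 1 of the standard diet they were -0.018 and 0.0018 (Abca1 and Abcc2, genotype, standard), -0.108 (Abcg5, genotype, high-fat), -0.0047 (Abca1, genotype average), -0.038 (Abcb4, diet in SIRT3KO) and -0.050, -0.021 and -0.119 (Abcg5, Abcb4 and Abcc2, interaction). Leaving out 1 array gave ranges for the genotype difference on the high-fat diet of Abcc2 -0.117 to 0.055, Abcg5 -0.108 to 0.155, Abcg8 -0.036 to 0.133. On the standard diet they were Abca1 -0.026 to 0.102, Abcc2 -0.180 to 0.0074, Abcg5 -0.199 to 0.015. For the genotype average they were Abcc3 -0.0066 to 0.026, Abcg1 -0.012 to 0.078, Abcg5 -0.095 to 0.044. For the diet in SIRT3KO they were Abcb11 -0.024 to 0.215, Abcb4 -0.038 to 0.071. For the diet average it was Abcb4 -0.039 to 0.015. For the interaction they were Abca1 -0.013 to 0.121, Abcb11 -0.176 to 0.063, Abcc2 -0.055 to 0.146, Abcg5 -0.040 to 0.222.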
